A study of Homo sapiens with 9 samples.

Results

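The MYC family and its partners were followed as 10 genes, MYC, MYCN, MYCL, MAX, MXD1, MXI1, MXD3, MXD4, MNT and MLX, out of 58676 genes in the count table. They were taken by gene name, as the MYC paralogs and the genes of the MAX network. They were chosen by measured values as well, namely the counts of knockdown against control, since MYCN had lost its reads after knockdown, and since MYC lies on chromosome 8, whose genes were shifted as a whole. Values against control are therefore descriptions without a test, and the test given for these 10 genes is that of hairpin #3 against hairpin #1. All 10 genes passed the filter on low counts that left 15975 tested genes.

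RNA-seq was carried out in OVCA433, an established cell line labelled as ovarian serous adenocarcinoma. Cells were transduced with lentivirus carrying a control vector (genotype given as WT) or a short hairpin RNA (shRNA) against MPZL3, a predicted cell adhesion molecule, either hairpin #1 or hairpin #3. There were 3 libraries per group, lettered A, B and C, which the study's methods describe as biological replicates, with 16850854 to 23890191 counts each. All 9 libraries come from 1 cell line, and the control is described by the study as an empty vector in one place and a scramble hairpin in another.

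MYC, N-MYC and L-MYC are basic helix-loop-helix leucine zipper factors that bind DNA and activate transcription as dimers with MAX, mostly at the E-box CACGTG. MXD1, MXI1, MXD3, MXD4 and MNT compete for MAX and repress through the same sites, and MLX is a MAX-like factor that pairs with some of these repressors and with the glucose-sensing factors MLXIP and MLXIPL. MYC drives ribosome production, metabolism and cell-cycle entry in many tumours, including ovarian cancer, whereas MYCN is best known from neuroblastoma.

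The targeted gene was checked first. MPZL3 was at 15.59, 21.9 and 21.03 CPM (counts per library total after TMM scaling, the unit of level used throughout) in control libraries A, B and C, at 1.869, 1.984 and 1.801 with hairpin #1, and at 1.942, 0.9876 and 1.795 with hairpin #3. Of 14 ovarian serous markers, 11 were tested, 7 fell and 1 rose in knockdown, and 2 were at 0 in every library, WT1 among them. PAX8, a lineage factor of Müllerian epithelium, was at 82.34 to 115.2 CPM in control and 189.0 to 229.6 CPM in knockdown. EPCAM, an epithelial adhesion molecule, was at 375.7 to 420.1 CPM in control and 4.68 to 9.945 CPM in knockdown, and CLDN4, CLDN3 and MUC16 also fell. The summed level of these markers was 11650 to 14620 CPM in control and 5399 to 6948 CPM in knockdown. Summed levels were at most 4.005 CPM for 10 neuroblast and neuroendocrine markers, 1.412 CPM for 10 leukocyte markers and 8.562 CPM for 6 endothelial markers in any library. Low as they were, DBH and CHGB of the neuroblast list and CDH5 and KDR of the endothelial list rose in knockdown, and of 7 mesothelial markers 2 were tested, of which UPK3B fell and LRRN4 rose with hairpin #3 by 1.26 (adjusted p = 0.03771, edgeR) (list summed level 55.19 to 76.22 CPM in control and 10.72 to 37.07 CPM in knockdown). The part of these shifts in the values below was not tested.

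The promoters of 9 of the 10 genes were matched in RefSeq (GRCh38.p14), as 12 windows of 300 bases, 250 before and 50 after the start site. MYC was not matched. CACGTG, a palindrome that reads the same on both strands, was present in the windows of MXD4, MNT and MLX. It began at positions -238, -193 and -50 counted from the start site. Of all 35116 promoter windows 7.256% held CACGTG, and counted by gene 8.775% of 27300 did. The E2F spellings TTTGGCGC and TTTCGCGC, searched on both strands, were present in the MYCN window alone among the members. They were 2 overlapping matches on opposite strands beginning at -176 and -172. Of all windows 1.148% held either spelling, and counted by gene 1.399% did. The 250 bases before the start site are shown 5′ to 3′ for both paralogs that were low in knockdown, MYCN (chr2:15940300-15940549, plus strand) and MYCL (chr1:39901918-39902167, minus strand), and for the members with an E-box, MXD4 (chr4:2262110-2262359, minus strand), MNT (chr17:2401061-2401310, minus strand) and MLX (chr17:42566850-42567099, plus strand). Capitals mark CACGTG or the E2F spellings, and the MYCL stretch has neither. Start sites are those of RefSeq and differ from the gene bounds used for counting, given below. By those bounds the MYCL stretch lies within the gene, and the MXD4, MNT and MLX stretches lie partly within theirs.
MYCN: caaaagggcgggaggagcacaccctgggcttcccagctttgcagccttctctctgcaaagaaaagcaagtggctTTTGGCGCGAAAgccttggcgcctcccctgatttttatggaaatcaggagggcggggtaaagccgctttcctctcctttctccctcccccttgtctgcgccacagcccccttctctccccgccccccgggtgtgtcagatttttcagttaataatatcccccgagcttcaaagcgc
MYCL: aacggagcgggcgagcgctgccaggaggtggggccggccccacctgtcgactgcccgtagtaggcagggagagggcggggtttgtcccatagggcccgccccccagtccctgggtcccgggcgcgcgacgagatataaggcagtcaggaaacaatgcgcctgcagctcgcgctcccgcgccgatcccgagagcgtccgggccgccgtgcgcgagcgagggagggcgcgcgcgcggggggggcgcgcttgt
MXD4: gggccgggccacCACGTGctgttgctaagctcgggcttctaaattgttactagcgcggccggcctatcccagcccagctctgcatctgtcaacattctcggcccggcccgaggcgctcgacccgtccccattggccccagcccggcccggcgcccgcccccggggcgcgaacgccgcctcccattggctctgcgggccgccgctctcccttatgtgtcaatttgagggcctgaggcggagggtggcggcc
MNT: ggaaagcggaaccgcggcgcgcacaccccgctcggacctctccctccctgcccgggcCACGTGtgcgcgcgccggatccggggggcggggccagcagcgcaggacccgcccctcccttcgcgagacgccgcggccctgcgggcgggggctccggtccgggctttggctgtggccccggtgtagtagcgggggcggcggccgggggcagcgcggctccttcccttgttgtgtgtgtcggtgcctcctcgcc
MLX: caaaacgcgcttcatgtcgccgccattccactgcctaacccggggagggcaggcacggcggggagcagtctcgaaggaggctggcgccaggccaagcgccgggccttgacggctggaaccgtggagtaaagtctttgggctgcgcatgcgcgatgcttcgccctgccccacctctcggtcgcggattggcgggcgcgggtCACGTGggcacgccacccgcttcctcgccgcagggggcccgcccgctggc
A match is a run of letters and not a measured binding site.

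MYCN was the paralog that differed most between the arms. MYCN (ENSG00000134323, hg38 chromosome 2, 15940564 to 15947007, plus strand) had 748, 791 and 640 counts in control libraries A, B and C. It had 1, 0 and 0 counts with hairpin #1 and 0 counts in each of the 3 hairpin #3 libraries. Control libraries averaged 35.39 ± 4.449 CPM (SD, n = 3), and against 3 counts in each knockdown library (0.1501 CPM) MYCN was at least 235.8-fold lower in knockdown. The bound takes in counting error alone, as PCR copies were counted without molecular identifiers. In a bulk sample, fewer cells expressing a gene and less RNA per cell cannot be told apart.

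Few genes of this abundance were at the floor in knockdown. Of 6208 genes with at least 600 counts in each control library, a minimum just under the lowest control count of MYCN, 7 had at most 3 counts in every knockdown library, and MYCN and 4 others had at most 1. The 7 were BSPRY, LAD1, MIR205HG, MYCN, RAB25, SYK and VGLL1, chosen for listing after their values were seen. MYCN had been chosen for its lost reads, so its place among the 7 is a description. FGD3 and MUC20, also at the floor in knockdown, missed the minimum with 519 and 505 counts in control A. Likeness to MYCN was measured over all 9 libraries on the log2(CPM + 0.5) scale, relative to control, and 9693 genes averaging 10 CPM or more were eligible. The most alike were BSPRY, FGD3, MUC20, ACKR2 and SOWAHB, at root mean square differences of 0.108 to 0.3904. BSPRY had 698, 763 and 784 counts in control and 2, 0, 0, 0, 0 and 0 in knockdown, and MUC20, a mucin, had 505, 950 and 1035 counts in control and 0 in all 6 knockdown libraries.

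Of 8 tested genes within 2 Mb of MYCN, 2 were called lower, MYCNOS and FAM84A, where 7.4% of all tested genes were called lower. The median log2 fold change of the 8 was -0.01. MYCNOS, the antisense transcript that overlaps the start of MYCN, had 36, 18 and 30 counts in control and 0 in all 6 knockdown libraries, at least 9.044-fold lower. The libraries kept no strand, so reads of MYCN and MYCNOS in the overlap cannot be told apart. DDX1, an RNA helicase gene 349.4 kb away that is often co-amplified with MYCN, was at 160.0, 144.9 and 141.1 CPM in control, 147.4 to 182.0 CPM with hairpin #1 and 126.3 to 161.2 CPM with hairpin #3. Its log2 fold change was 0.02 (SE 0.1133, adjusted p = 0.924, edgeR), and that of NBAS was 0.06 (SE 0.1081, adjusted p = 0.7088, edgeR). FAM84A, 1308 kb away, fell by 2.57 on the log2 scale (SE 0.3374, adjusted p = 0.0001004, edgeR), and FAM49A, 725.8 kb away on the other side, was higher by 0.69 (SE 0.1622, adjusted p = 0.006034, edgeR), short of the fold threshold of 1. KCNS3, a potassium channel subunit gene 1937 kb away, fell with hairpin #3 by 1.41 (adjusted p = 0.001331, edgeR) and was at 0.32 with hairpin #1 (adjusted p = 0.3388, edgeR).

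**Figure D1:**
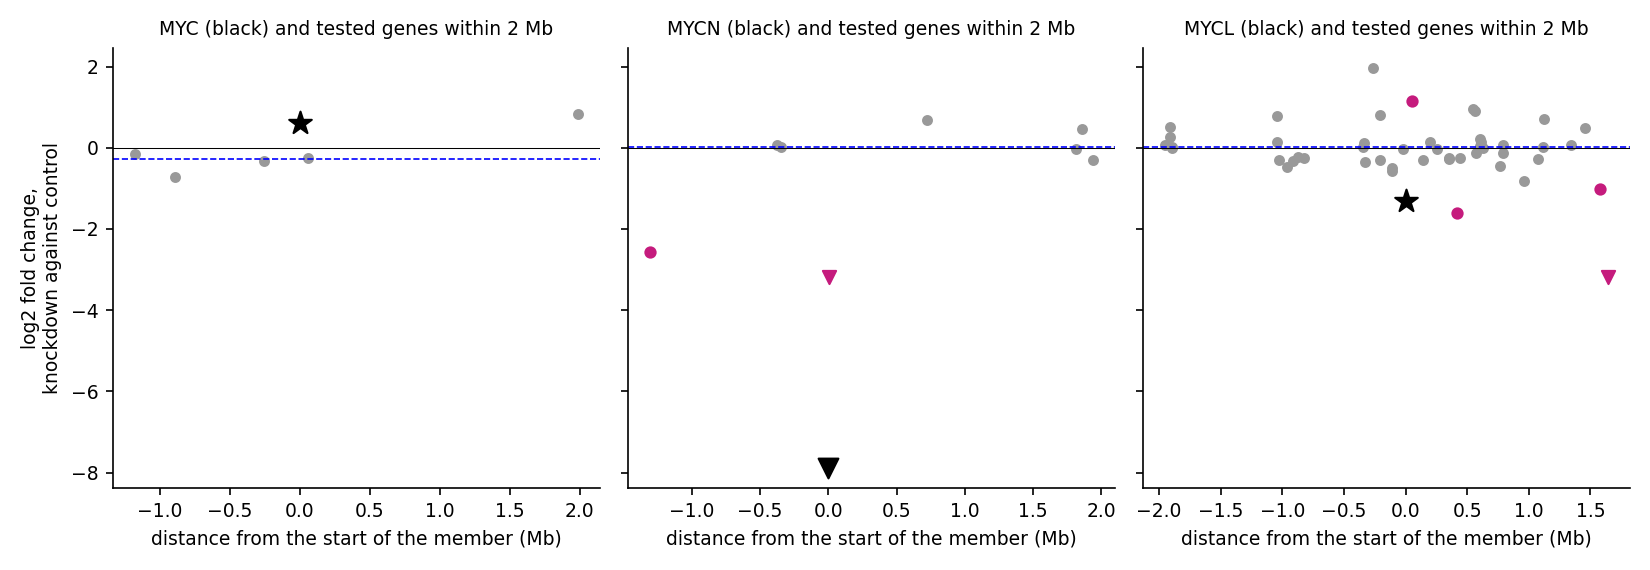
Log2 fold change of knockdown (6 libraries) against control (3 libraries) for each tested gene within 2 Mb of MYC, MYCN and MYCL, by distance from the start of the member in Mb. Black marks the member, magenta a called gene, grey a gene not called, triangles a bound for genes at 3 counts or fewer in every knockdown library, and the dashed line the median of the chromosome. MYCN lies at its bound of -7.88 while NBAS and DDX1 beside it lie at 0.06 and 0.02.

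MYCL was low in every library and lower in knockdown. MYCL (ENSG00000116990, hg38 chromosome 1, 39895426 to 39902256, minus strand) was at 3.002, 4.23 and 4.014 CPM in control (62, 85 and 84 counts), 1.776, 1.221 and 1.586 CPM with hairpin #1 and 1.883, 1.426 and 1.197 CPM with hairpin #3. Each of the 6 knockdown libraries was below every control library. The log2 fold change was -1.29 (SE 0.2569) with hairpin #1 and -1.33 (SE 0.2617) with hairpin #3, both against the same controls. Around MYCL, 47 genes were tested within 2 Mb, with a median of 0.0, 1 called higher and 3 called lower. Of all tested genes, 7.26% were called higher and 7.4% lower. MFSD2A, a lipid transporter gene 52.9 kb away, rose by 1.16 (SE 0.1751, adjusted p = 0.0002984, edgeR), a value of 0.97 without control replicate C, whereas TRIT1, 18.7 kb to the other side, was at -0.04 (SE 0.108, adjusted p = 0.8092, edgeR). The 3 lower genes were COL9A2, EDN2 and RP11-486B10.4. EDN2, which encodes an endothelin, was at -1.02 (adjusted p = 0.03674, edgeR), and its adjusted p lay between 0.05167 and 0.1441 without control replicate B or C or any 1 hairpin #3 library.

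MYC was the most abundant member and was higher in knockdown. MYC (ENSG00000136997, hg38 chromosome 8, 127735434 to 127741434, plus strand) was at 96.37, 101.9 and 109.4 CPM in control, 125.1, 120.4 and 165.4 CPM with hairpin #1, and 135.3, 191.9 and 198.7 CPM with hairpin #3. Each of the 6 knockdown libraries was above every control library, and the hairpins overlapped each other. The log2 fold change was 0.42 (SE 0.1521) with hairpin #1 and 0.77 (SE 0.1526) with hairpin #3, below the fold threshold of 1 with either.

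MYC and the median of its chromosome differed in sign. Over the 546 tested genes of chromosome 8, the median log2 fold change of knockdown against control was -0.27, and it was -0.35 with hairpin #1 and -0.21 with hairpin #3. MYC lay 0.77 above that median with hairpin #1 and 0.98 above it with hairpin #3. PVT1, a long noncoding RNA gene that begins 59.1 kb downstream of the MYC start, was at 9.637, 11.2 and 10.23 CPM in control, 6.635 to 9.775 CPM with hairpin #1 and 7.002 to 11.19 CPM with hairpin #3. Its log2 fold change was -0.24 (SE 0.1727, adjusted p = 0.3266, edgeR). Of 5 tested genes within 2 Mb of MYC, 0 were called by edgeR in the pooled comparison, where 14.7% of all tested genes were. In the comparisons of single hairpins CASC8 fell with hairpin #1 by 1.0 (adjusted p = 0.004831, edgeR), and AC103718.1 rose with hairpin #3 by 1.36 (adjusted p = 0.005099, edgeR). FAM49B, 2282 kb away, was at 89.32 to 106.5 CPM in control and 56.62 to 71.65 CPM in knockdown, a log2 fold change of -0.64 (SE 0.09741, adjusted p = 0.0003043, edgeR).

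The 5 genes whose levels over the 9 libraries were most like MYC, by the measure used for MYCN, were SWI5, ASB1, ME3, ZC3H7B and BCAR1, at root mean square differences of 0.1049 to 0.1286. They lie on chromosomes 9, 2, 11, 22 and 16. SWI5, a gene of homologous recombination, was at 22.47, 25.18 and 31.02 CPM in control, 32.38, 35.0 and 42.57 CPM with hairpin #1, and 35.19, 46.36 and 46.58 CPM with hairpin #3. BCAR1, which encodes an adhesion adaptor, was at 106.5 to 113.4 CPM in control, 145.9 to 166.2 CPM with hairpin #1 and 167.2 to 189.8 CPM with hairpin #3.

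**Figure D2:**
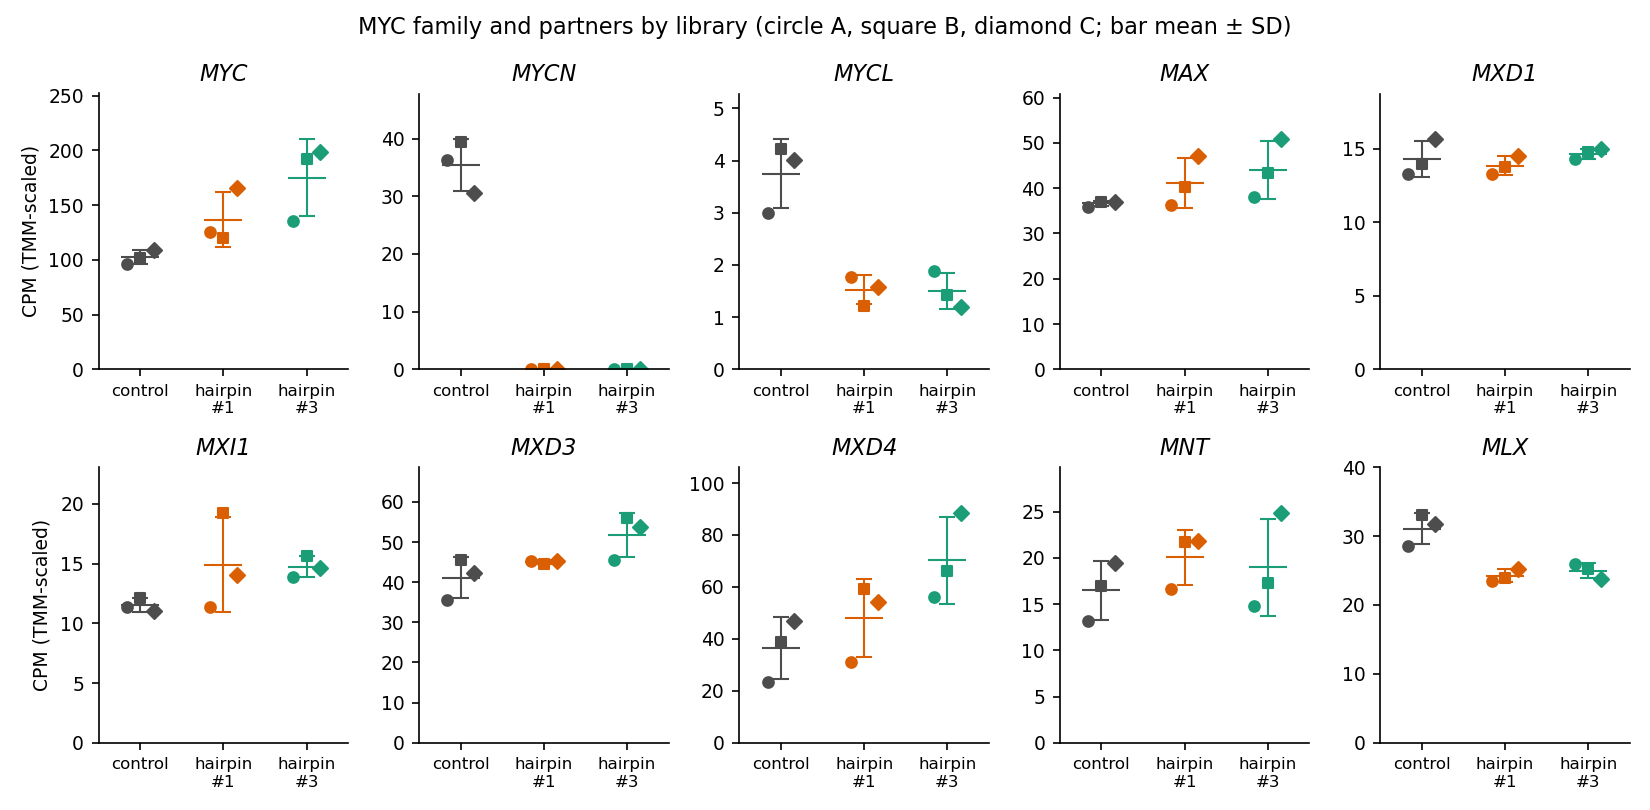
CPM of each member in each library (circle A, square B, diamond C) in control, hairpin #1 and hairpin #3, with the mean ± SD of 3 libraries, each vertical axis starting at 0. MYC was above its control range in all 6 knockdown libraries, MYCN was at or near 0, MYCL and MLX were below their control range, and the remaining members overlapped between the arms.

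Per kb of gene length, the scale on which genes can be set beside each other, MYC led in all 3 groups. In control it stood at 34.18 ± 2.186 CPM per kb (SD, n = 3), above 91.7% of tested genes, followed by MYCN at 13.6 ± 1.71 CPM per kb, above 78.5%. MAX (8.269), MXD3 (7.989) and MLX (7.298 CPM per kb) came next, and neighbours among them overlapped over the control libraries. MXD4 (5.156 CPM per kb) overlapped neither the member above it nor the one below. MXI1 (2.497), MXD1 (2.251) and MNT (1.888 CPM per kb) again overlapped with their neighbours, and MYCL was lowest at 0.7405 CPM per kb. With hairpin #3 the order after MYC was MXD3 (10.05), MXD4 (9.946), MAX (9.946) and MLX (5.856 CPM per kb), and the first 3 of these overlapped.

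MYCN made up a part of the paralog message in control libraries and next to none in knockdown, where nearly all of it was MYC. MYCN was 28.05% ± 3.528 (SD, n = 3) of the summed MYC, MYCN and MYCL level per kb in control, 0.04271% in hairpin #1 library A and 0 in the other 5 knockdown libraries. MYC was 68.87%, 68.02% and 74.4% of the sum in control libraries and between 99.12% and 99.64% in knockdown libraries. The sum itself was 46.62, 49.93 and 49.01 CPM per kb in control, 42.05, 40.35 and 55.42 with hairpin #1, and 45.47, 64.23 and 66.44 with hairpin #3. The 3 groups overlapped on this sum. Relative to MAX the sum was 5.867 ± 0.1087 in control, 4.925 ± 0.4242 with hairpin #1 and 5.884 ± 0.6252 with hairpin #3 (SD, n = 3).

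**Figure D3:**
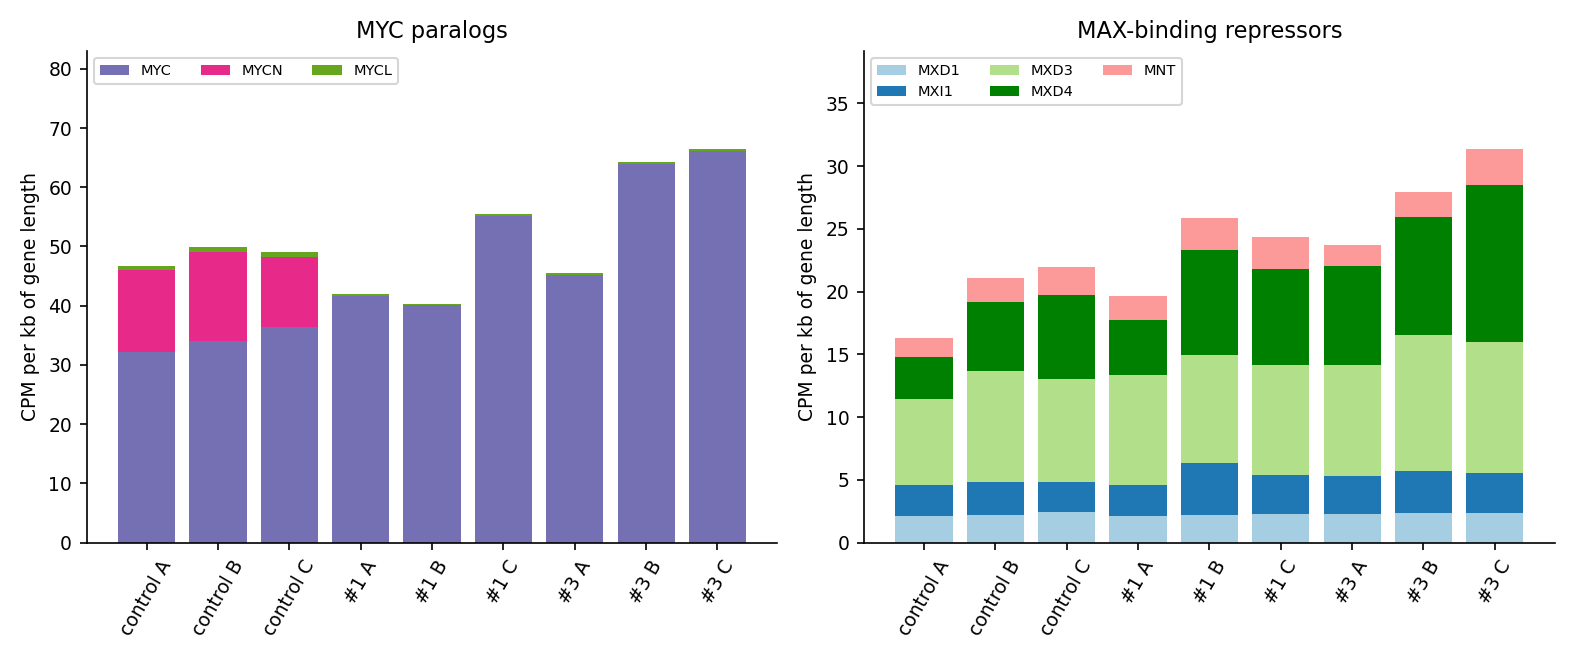
Stacked levels in CPM per kb of gene length for the MYC paralogs (left) and the MAX-binding repressors (right) in each of the 9 libraries (#1 and #3 are the hairpins). MYCN fills 23.98% to 30.3% of the paralog bar in control libraries and at most 0.04271% in knockdown libraries, and the paralog bars of the groups overlap in height. The repressor bars of hairpin #3 (23.75 to 31.36) lie above those of control (16.29 to 21.94), and the share of tested genes separated in this way was not counted.

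MAX, the obligate partner of all 3 paralogs, was higher by a small margin in most knockdown libraries. MAX (ENSG00000125952, hg38 chromosome 14, 65006174 to 65102695, minus strand) was at 35.88, 37.03 and 36.99 CPM in control, 36.26, 40.29 and 47.2 CPM with hairpin #1, and 37.95, 43.45 and 50.77 CPM with hairpin #3. In 5 of 6 knockdown libraries it exceeded all control libraries, and the log2 fold change was 0.17 (SE 0.1248) and 0.27 (SE 0.125) with the hairpins in turn. MAX overlaps FNTB on the opposite strand, which was at 3.821 to 5.496 CPM throughout.

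Among the MAX-binding repressors MXD4 stood out for its values and for its spread. MXD4 (ENSG00000123933, hg38 chromosome 4, 2247432 to 2262294, minus strand) was at 23.49, 38.77 and 46.93 CPM in control, 30.98, 59.17 and 54.15 CPM with hairpin #1, and 56.02, 66.11 and 88.47 CPM with hairpin #3. The A library was lowest in all 3 groups, hairpin #1 overlapped control, and all 3 hairpin #3 libraries lay above control. The share of tested genes with hairpin #3 above control in this way was not counted. The log2 fold change was 0.4 (SE 0.2627) with hairpin #1 and 0.95 (SE 0.2632) with hairpin #3. The 585 tested genes of chromosome 4 had a median of -0.4 with hairpin #1 and 0.04 with hairpin #3, and relative to these medians MXD4 was at 0.8 and 0.91.

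The other repressors differed less. MXI1 (ENSG00000119950, hg38 chromosome 10, 110207605 to 110287365, plus strand) was at 11.38, 12.14 and 10.99 CPM in control, 11.4, 19.23 and 14.06 CPM with hairpin #1, and 13.89, 15.64 and 14.64 CPM with hairpin #3, above all control libraries in 5 of 6. MXD3 (ENSG00000213347, hg38 chromosome 5, 177301461 to 177312757, minus strand), a member expressed with proliferation, was at 35.54, 45.59 and 42.39 CPM in control, 45.28, 44.46 and 45.4 CPM with hairpin #1, and 45.6, 55.96 and 53.81 CPM with hairpin #3. MXD3 was thus the 1 member whose hairpin libraries did not overlap each other, by a margin of 45.4 against 45.6 CPM, while 27.7% of tested genes did not overlap between the hairpins. MXD3 shares genomic sequence with RAB24 on its own strand and PRELID1 on the other, and PRELID1 was at 115.4 to 165.9 CPM, so counts in the shared stretches are uncertain.

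MNT (ENSG00000070444, hg38 chromosome 17, 2384060 to 2401118, minus strand), the repressor present in most cells, was at 13.12, 16.92 and 19.4 CPM in control, 16.64, 21.72 and 21.87 CPM with hairpin #1, and 14.83, 17.28 and 24.86 CPM with hairpin #3, and the groups overlapped. MXD1 (ENSG00000059728, hg38 chromosome 2, 69897688 to 69942945, plus strand), a repressor linked to differentiation, was at 13.27 to 15.63 CPM in control, 13.27 to 14.53 CPM with hairpin #1 and 14.3 to 14.96 CPM with hairpin #3, with a pooled log2 fold change of 0.0 (SE 0.1026). MXD1 shares sequence with SNRNP27, which was at 20.93 to 27.89 CPM. Summed per kb, the 5 repressors were at 19.78 ± 3.055 CPM per kb in control, 23.27 ± 3.228 with hairpin #1 and 27.68 ± 3.809 with hairpin #3 (SD, n = 3), all hairpin #3 libraries lay above control, and the share of MXD4 in that sum was 25.58%, 28.78% and 35.65%. How often tested genes separate hairpin #3 from control like this was not counted. The ratio of the paralog sum to the repressor sum was 2.863, 2.365 and 2.234 in control, 2.141, 1.562 and 2.278 with hairpin #1, and 1.915, 2.3 and 2.119 with hairpin #3, so that the groups overlapped.

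MLX was lower with both hairpins by a small and even margin. MLX (ENSG00000108788, hg38 chromosome 17, 42567068 to 42573239, plus strand) was at 28.57, 33.0 and 31.68 CPM in control, 23.41, 23.96 and 25.25 CPM with hairpin #1, and 25.89, 25.18 and 23.75 CPM with hairpin #3. Again each of the 6 knockdown libraries was below every control library, and the log2 fold change was -0.36 (SE 0.09995) and -0.32 (SE 0.1002). Its tail overlaps PSMC3IP on the opposite strand, which was at 6.97 to 11.47 CPM.

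**Figure D4:**
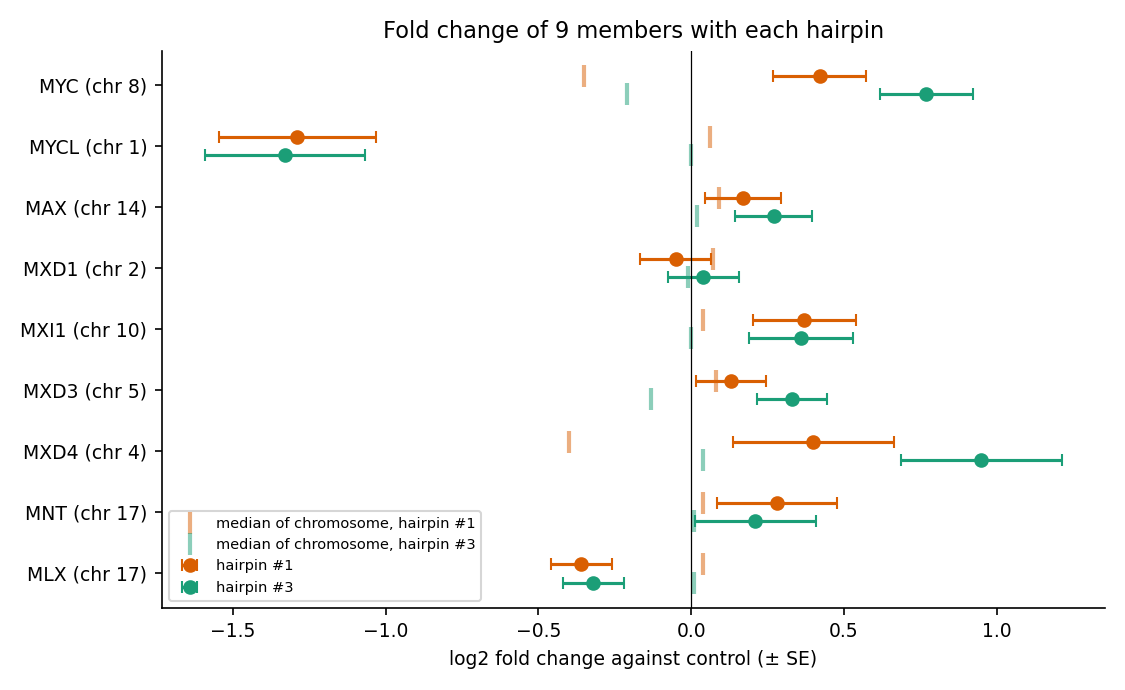
Log2 fold change against control with its standard error for 9 members with hairpin #1 and hairpin #3 (3 libraries each, the same 3 controls), with short vertical bars at the median of the member's chromosome for that hairpin. MYCN is left out because it was at or near 0 counts in knockdown. MYCL lies at -1.29 and -1.33, and MYC and MXD4 lie above the medians of chromosomes 8 and 4.

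A gene was called at an adjusted p-value under 0.05 (edgeR's quasi-likelihood test, Benjamini-Hochberg over all tested genes) and a log2 fold change of 1 or more in size. In the pooled comparison 2 of 10 members were called, both lower (MYCN and MYCL), where 14.7% of all tested genes were called, 7.26% higher and 7.4% lower, and nothing is read from this count because the comparison had been used to choose the genes. The same 2 members were called with hairpin #1 (16.3% of tested genes) and with hairpin #3 (15.3%). The 6 knockdown libraries lay outside the control range for 4 members, MYC above and MYCN, MYCL and MLX below, where 33.1% of tested genes did so.

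The hairpins were compared with each other to ask whether the network answered alike to both. MYCN was at the floor with both hairpins and could not be compared. By edgeR 0 of the other 9 members were called between hairpin #3 and hairpin #1, where 3.93% of tested genes were, and 0 passed an adjusted p-value of 0.05, where 11.6% of tested genes did. At an unadjusted p under 0.05 there was 1, MYC, and the Wald test of DESeq2 called 0. MYC was higher with hairpin #3 by 0.36 on the log2 scale (SE 0.1516, 95% interval 0.03 to 0.68, adjusted p = 0.1608, edgeR). The median of chromosome 8 differed by 0.17 in the same direction, which left 0.19. The MYC difference passed 0.05 under other settings, at 0.51 (adjusted p = 0.02502, edgeR) without hairpin #3 replicate A, at 0.36 (adjusted p = 0.03667, edgeR) with no filter on low counts and at 0.35 (adjusted p = 0.01496, edgeR) with the replicate letter as a block. MXD4 was higher with hairpin #3 by 0.55 (SE 0.2603, 95% interval -0.02 to 1.11, adjusted p = 0.2148, edgeR), and the median of chromosome 4 differed by 0.41 in the same direction, which left 0.14. With the replicate block the MXD4 difference was 0.57 (adjusted p = 0.001747, edgeR). Under 13 of 15 alternatives the MXD4 difference stayed above 0.05, with an adjusted p of up to 0.5245 over the edgeR and DESeq2 fits. MYC, MXD4, MAX, MXD3 and MXD1 were each higher with hairpin #3 in all 3 pairs of libraries of the same letter. The share of all tested genes that did so was not counted, so nothing is read from this shared direction. MXD3 was higher by 0.2 (95% interval -0.04 to 0.45, adjusted p = 0.3051, edgeR). For MLX the interval was -0.18 to 0.26, for MYCL -0.64 to 0.56, for MAX -0.17 to 0.37, for MXD1 -0.17 to 0.34, for MXI1 -0.38 to 0.35 and for MNT -0.5 to 0.35.

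Of 3 further genes of the network, MLXIPL alone passed both thresholds. MLXIPL, the glucose-sensing partner of MLX known as ChREBP, was at 1.792, 1.792 and 1.195 CPM in control, 0.09346, 0.05087 and 0.1286 CPM with hairpin #1, and 0.5296, 0.5487 and 0.7825 CPM with hairpin #3. With hairpin #1 it had 1 to 3 counts per library, 6 in all against 98 in control, which is 5.87% of the control level (95% exact counting interval 2.1% to 13.2%). It fell by 1.34 with hairpin #3 (SE 0.3471, adjusted p = 0.008738, edgeR). In the pooled comparison it fell by 2.16 (adjusted p = 0.01202, edgeR), and without control replicate B this was -2.08 with an adjusted p of 0.05127. MLXIP, its paralog, was at 156.4 to 172.9 CPM in control and 143.3 to 199.8 CPM in knockdown, and MGA, a large MAX-binding protein gene, was at 43.94 to 59.61 and 42.32 to 63.79 CPM.

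The genes that work with MYC proteins were measured next. Of 20 tested cofactors, among them the TRRAP and TIP60 acetylase subunits, the CDK9 elongation kinase and the SIN3 and NCOR corepressors, 0 were called by edgeR in the pooled comparison, against 14.7% of tested genes, and 7 had an adjusted p-value under 0.05, against 33.0%. Of the 7, 4 were higher and 3 lower, and the list's median log2 fold change was 0.14. Of 13 regulators of MYC protein stability, 0 were called and 2 had an adjusted p-value under 0.05, with a median of -0.03. SKP2, a ubiquitin ligase subunit that binds MYC, was at 128.2, 103.5 and 102.4 CPM in control, 313.5, 264.6 and 309.5 CPM with hairpin #1, and 159.8, 121.5 and 114.3 CPM with hairpin #3. It rose with hairpin #1 by 1.41 (SE 0.139, adjusted p = 3.316e-06, edgeR). Its pooled value of 0.94 missed the fold threshold, and passed it at 1.01, 1.06 and 1.07 without hairpin #3 replicate A, B or C.

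Few of the genes known to be activated by MYC were called. Over 64 tested targets in 3 lists, 3 were called higher and 0 lower in the pooled comparison, which is 4.69% against 14.7% of tested genes, and the median log2 fold change was 0.01, with 33 above 0 and 31 below. Of 26 ribosome biogenesis targets 0 were called by edgeR, 1 had an adjusted p-value under 0.05, and the median was 0.06. NCL, which encodes nucleolin, was at 1075.0 to 1290.0 CPM in control, 979.5 to 1521.0 CPM with hairpin #1 and 1060.0 to 1437.0 CPM with hairpin #3. CACGTG was present in the promoter windows of 10 of the 21 ribosome biogenesis genes matched (47.62%) and of 11 of 21 metabolic and translation genes (52.38%), against 8.775% of 27300 genes.

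Of 25 metabolic and translation targets 2 rose, with a list median of 0.02, and 1 of these calls was lost on leaving out control B, control C, hairpin #1 A or hairpin #1 B. Among them SLC7A5, a large neutral amino acid transporter, rose by 1.11 (SE 0.2402, adjusted p = 0.003823, edgeR). It was at 210.4 to 264.8 CPM in control, 597.8 to 710.4 CPM with hairpin #1 and 336.9 to 472.4 CPM with hairpin #3. SLC7A5 was named after its values were seen. ODC1, a classical MYC target in polyamine synthesis, was at 317.2 to 395.4 CPM in control, 248.1 to 371.3 CPM with hairpin #1 and 376.2 to 402.6 CPM with hairpin #3.

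The 13 cell cycle targets had a median of -0.26, with 1 called higher in the pooled comparison, a call that was lost without control replicate A or hairpin #1 replicate B or C. The median was -0.14 without hairpin #1 replicate B. A call in the other direction appeared under 7 alternatives, namely library totals without TMM factors, the 3-group model and the omission of control C, hairpin #1 A or any 1 hairpin #3 library, and CCNE1, a cyclin E gene, passed the fold threshold in 6 of them at -1.0 to -1.07. With hairpin #1, 3 of the list fell, CCND2, CCNE1 and CDC25A, and with hairpin #3 0 of 13 were called. CCND2, which encodes cyclin D2, was at 4.697, 3.036 and 4.54 CPM in control, 0.2336, 0.2035 and 0.6431 CPM with hairpin #1, and 3.119, 4.883 and 4.695 CPM with hairpin #3. The hairpins differed by 3.5 on the log2 scale (SE 0.3815, adjusted p = 7.243e-05, edgeR).

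Of 10 genes known to be repressed by MYC, 2 rose and 2 fell in the pooled comparison, where 14.7% of tested genes were called, and the median was -0.19. At an adjusted p-value under 0.05 (edgeR) 2 were higher and 5 lower, against 33.0% of tested genes in either direction. The list was chosen with earlier results of these data known. The number called lower was 1 without control replicate B, hairpin #1 replicate C or hairpin #3 replicate B, and 4 without control replicate A or hairpin #1 replicate B. NDRG1, a stress-responsive gene, rose from 5.278, 6.868 and 7.36 CPM in control to 26.73, 50.72 and 40.86 CPM with hairpin #1 and 15.18, 20.08 and 23.61 CPM with hairpin #3. CDKN1C, which encodes the cyclin-dependent kinase inhibitor p57, rose by 1.98 (SE 0.2695, adjusted p = 0.0001323, edgeR), and CEBPA, a differentiation factor, fell by 1.41 (SE 0.279, adjusted p = 0.002108, edgeR). GAS1, the other gene that fell, was at -1.03 and lay at -0.95 to -0.99 without control replicate B, hairpin #1 replicate C or hairpin #3 replicate B or C. CDKN1A, which encodes p21, fell with hairpin #1 by 1.08 (SE 0.1663, adjusted p = 0.0001811, edgeR), and was at 493.8 to 722.0 CPM in control and 218.5 to 349.6 CPM in knockdown. In the pooled comparison CDKN1A passed the fold threshold only on leaving out control A (-1.11), hairpin #1 B (-1.02) or hairpin #3 C (-1.02). Of 5 tested targets of the MLX partners ARRDC4 alone was called, at 1.0 (SE 0.2279, adjusted p = 0.005145, edgeR), on the fold threshold itself. ARRDC4 missed that threshold in 6 of 15 alternatives, and was 0.85 without control replicate A and without hairpin #1 replicate B. TXNIP, the best known of them, was at 296.1 to 512.2 CPM in control and 374.2 to 618.4 CPM in knockdown.

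**Figure D5:**
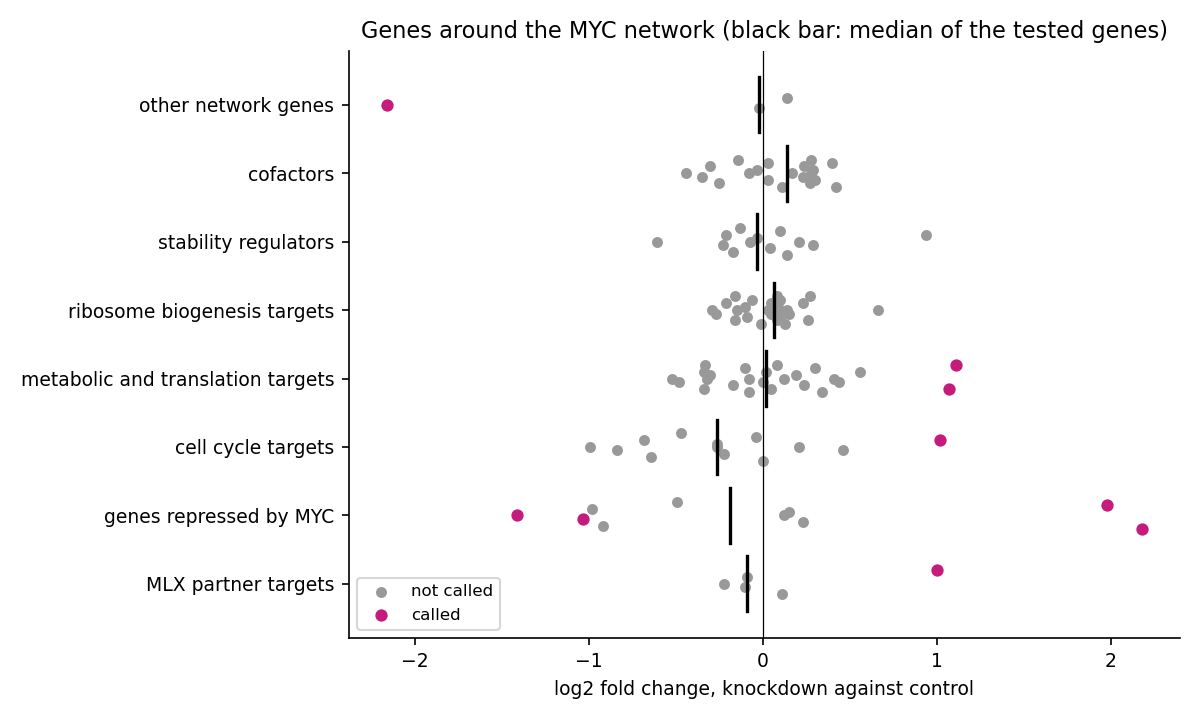
Log2 fold change of knockdown against control for each tested gene of 8 lists around the MYC network, with called genes in magenta, genes not called in grey and the median of each list as a black bar. The medians lie between -0.26 and 0.14, and the called genes include MLXIPL, SLC7A5, NDRG1, CDKN1C, CEBPA, GAS1 and ARRDC4.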

How the data were processed

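Poly(A)-selected, non-directional RNA-seq libraries of OVCA433 cells were analysed from the raw read counts per gene deposited by the authors, with no normalization. The submitters' processing notes name HISAT2 2.0.5, featureCounts 1.5.0-p3 and hg38. Gene length is the value of the count table. Genes were filtered with filterByExpr (minimum count 10, minimum total 15), which left 15975 genes, scaled by TMM and tested with edgeR 4.0.16 (glmQLFit, glmQLFTest) in R 4.3.3, after a check on simulated data. Both hairpins formed 1 arm in the pooled comparison, following the study. A model of 3 groups gave the value of either hairpin and their difference. SE is the fold change divided by the root of F, and CPM are given with the SD. A group at 3 counts or fewer per library was at the floor. P-values measure the spread between these libraries, which come from 1 line.

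The members and lists were chosen with earlier results of these data known. Named genes were the 10 members, 3 other network genes, MPZL3, per list up to 4 genes called alike in all comparisons with control and up to 2 called between hairpins, overlapping genes, the 3 nearest tested genes each side of MYC and MYCN, and the 5 most alike in pattern. The other genes, such as NCL, ODC1, TXNIP, PAX8, MFSD2A, CCNE1, CDKN1A, GAS1 and ARRDC4, were named after their values were seen. Alternatives were DESeq2 1.42.0 (its Wald test, and its size factors in edgeR), unscaled totals, no filter, a replicate block, leaving out single libraries, the pooled contrast in the 3-group model, the 6 hairpin libraries alone and subtraction of the chromosome median. Some genes of the lists enter the counts and medians but are not reported here by name or value.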

Additional observations from a re-analysis of the deposited data

Results flagged for a closer look

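The following genes around the network had a different effect of the hairpins, by the test of hairpin #3 against hairpin #1 at an adjusted p-value under 0.05 (edgeR). Differences are on the log2 scale, hairpin #3 minus hairpin #1, and no member was among them. Among regulators and targets, MLXIPL differed by 2.68 (a fitted value on 1 to 3 counts per hairpin #1 library), SKP2 by -1.17, CCND2 by 3.5, CDC25A by 0.95, SLC7A5 by -0.76, NDRG1 by -1.0 and CDKN1C by 0.64. The CDKN1C difference had an adjusted p of 0.04659, and its adjusted p reached 0.1628 under the alternatives. Of all tested genes 11.6% differed at this threshold. Of 60 tested neighbours within 2 Mb, 10 did. They were CASC8 (1.14) and AC103718.1 (1.35) near MYC, FAM84A (1.15), KCNS3 (-1.73) and SMC6 (-0.51) near MYCN, and HEYL (2.9), UTP11L (0.43), PABPC4 (0.49), RIMS3 (-0.65) and EDN2 (-1.17) near MYCL. HEYL had 1, 1 and 7 counts with hairpin #1. Without single hairpin libraries the adjusted p reached 0.06925 for AC103718.1 and 0.07783 for FAM84A, and under the alternatives it reached 0.1191 for SMC6 and 0.07391 for UTP11L. Among ovarian serous markers, CLDN4 differed by 1.21 and EPCAM by 0.7, the latter with an adjusted p of up to 0.06172 under the alternatives.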

How the results depend on the processing

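The counts of members called kept within 1.5 times of their value under every alternative run, at 2 in the pooled comparison and with hairpin #1, 2 or 3 with hairpin #3 and 0 between hairpins. Nothing is read from the steady counts against control, because values against control had been used to choose the genes. The third call with hairpin #3 appeared without control replicate C or without hairpin #3 replicate A. The hairpin difference of MYC passed an adjusted p of 0.05 with no filter on low counts (0.36, adjusted p = 0.03667, edgeR) and without hairpin #3 replicate A (0.51, adjusted p = 0.02502, edgeR), and that of MXD4 did with no filter (0.55, adjusted p = 0.0003567, edgeR). The cause was not tested. Of 15 alternatives, 12 left the MYC difference and 13 the MXD4 difference above an adjusted p of 0.05. Small hairpin differences changed sign: over the fits that left out 1 library MYCL ran from -0.23 to 0.11 (above 0, at 0.07 and 0.11, when hairpin #1 A or hairpin #3 C was omitted), MAX reached -0.01 when hairpin #3 C was omitted, MXI1 ran from -0.18 to 0.21 (above 0 when hairpin #1 B or, at 0.02, hairpin #3 A was omitted) and was 0.01 with library totals, and MNT ran from -0.32 to 0.07 (above 0 when hairpin #3 A was omitted). The depth limits MYCN in knockdown to a bound.

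Samples share a replicate letter, and nothing in the labels ties a letter to a day or culture. Same-letter deviations correlated at over 0.1 in 8 of 9 pairs of groups (lowest 0.06507, highest 0.6553, 9693 genes), and 14 of 18 comparisons matched best with the own letter. Between the hairpins all 3 same-letter correlations were over 0.1 (0.655, 0.119 and 0.531). With the replicate block 2 members were called in the pooled comparison and 0 between hairpins, the MYC difference was 0.35 (adjusted p = 0.01496, edgeR), the MXD4 difference was 0.57 (adjusted p = 0.001747, edgeR), and MXI1 was at 0.0.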
